A study of Mus musculus with 6 samples.

Results

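Complement is a cascade of plasma proteins that tags and lyses cells, and 9 of its genes, 6 components and 3 regulators, were examined in mouse aortic smooth muscle cells (MASMCs) with and without *Pdk4*. The members were *C1ra*, *C1s1*, *C2*, *C3*, *C4b*, *Cfb*, *Serping1*, *Cd55* and *Cd59a*, chosen by name. Of the 41721 genes in the deposited table, 5 carried one of these names (*C2*, *C3*, *Cfb*, *Serping1* and *Cd59a*). The other 4 (*C1ra*, *C1s1*, *C4b* and *Cd55*) have no gene name there and were taken from the main entry whose description names them, so their identity is less certain and they are counted apart. The cells came from abdominal aortas of mice aged 10 weeks, and 3 libraries of Pdk4fl/fl cells were compared with 3 of Pdk4SMKO cells. Both genotypes carry loxP sites around exons 4 to 6 of *Pdk4*, and Pdk4SMKO mice also carry the tamoxifen-inducible *Myh11*-Cre, a transgene active in smooth muscle. All 6 cultures received Ang II, given in the methods as 1 μM for 48 h, and the methods state passages 4 to 8 for MASMCs in general. No library without Ang II was in this comparison, and the labels do not say whether the 3 cultures came from separate mice, so p-values measure the spread between these cultures alone.

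The classical pathway starts when C1q, with its proteases C1r and C1s, cleaves C4 and C2, and the lectin pathway reaches the same step through the MASP proteases. The alternative pathway uses factor B, factor D and properdin, and all routes meet at C3, whose fragments coat surfaces and lead to the membrane attack complex. Host cells hold the cascade back with C1 inhibitor and clusterin in the fluid and with CD55, CD46 and CD59 on the membrane. The liver makes most plasma complement, while vascular smooth muscle cells, fibroblasts and macrophages also transcribe part of it.

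Total gene counts ranged from 16526044 to 22481670 among the libraries. CPM below are counts per 1000000 after TMM scaling, and log2 fold changes (Pdk4SMKO over Pdk4fl/fl) with adjusted p come from edgeR's quasi-likelihood test with Benjamini-Hochberg adjustment over 14085 genes. Calls required both an adjusted p below 0.05 and a change of 2-fold or more. *Pdk4*, the targeted gene, had 570, 639 and 421 counts in Pdk4fl/fl and 110, 182 and 141 in Pdk4SMKO libraries (log2 fold change -2.34, SE 0.22, adjusted p = 4.49e-06). Log2 CPM correlated at 0.985 or more within a genotype and at 0.781 or less between genotypes, and 59.3% of all tested genes were called. *Xist*, the RNA of the inactive X chromosome, had 3, 4 and 5 counts against 610, 347 and 321, although the study describes its mice as male and the Cre as Y-linked. *Xist* was looked up after values were seen, and sex, culture and genotype cannot be told apart in this design.

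Both soluble and membrane regulators among the members, and the component *C2*, were near absent from Pdk4fl/fl cells and present in Pdk4SMKO cells. *C3*, the most highly expressed member, was not called in either direction. Of the 5 members found by name, 3 were called higher (*C2*, *Serping1* and *Cd59a*), 0 lower and 2 not called (*C3* and *Cfb*). The 4 entries taken by description were called higher as well, which makes 7 of 9. Over all tested genes 32.8% were called higher and 26.5% lower. *C2*, *Serping1*, *Cd55* and *Cd59a* had at most 3 counts in every Pdk4fl/fl library. They passed the filter on low counts only through Pdk4SMKO, so they had to differ. *C4b* (9, 11 and 5 counts in Pdk4fl/fl) and *C1ra* (14, 9 and 4) also passed it only through Pdk4SMKO. The numbers of calls and the medians describe the entries and are no support for a difference of the group from other genes. With at least 10 counts required in every library, 0 of the 5 named members were called higher, since *C3* alone was tested. The genotypes did not overlap for 5 of the 9 entries, while 81.8% of all tested genes showed no overlap, so separation as such was not more frequent here. The median log2 fold change was 4.84 over the 5 named members and 4.02 over the 9 entries, against 0.12 over all tested genes. With *Cd59a* set to its lower bound, these medians were 2.56 and 3.20. In the 6 fits that leave out 1 library, the log2 fold changes stayed called and lay between 4.38 and 5.60 for *C2*, 3.56 and 4.40 for *C4b*, 9.68 and 11.21 for *Serping1*, 10.31 and 12.98 for *Cd55*, and 7.01 and 7.56 for *Cd59a*. All of these genes, *C4b* included, passed the filter on low counts through Pdk4SMKO alone, so that staying called adds no support. For each member the exact two-sided permutation test over libraries has 0.1 as its smallest possible p.

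**Figure D1:**
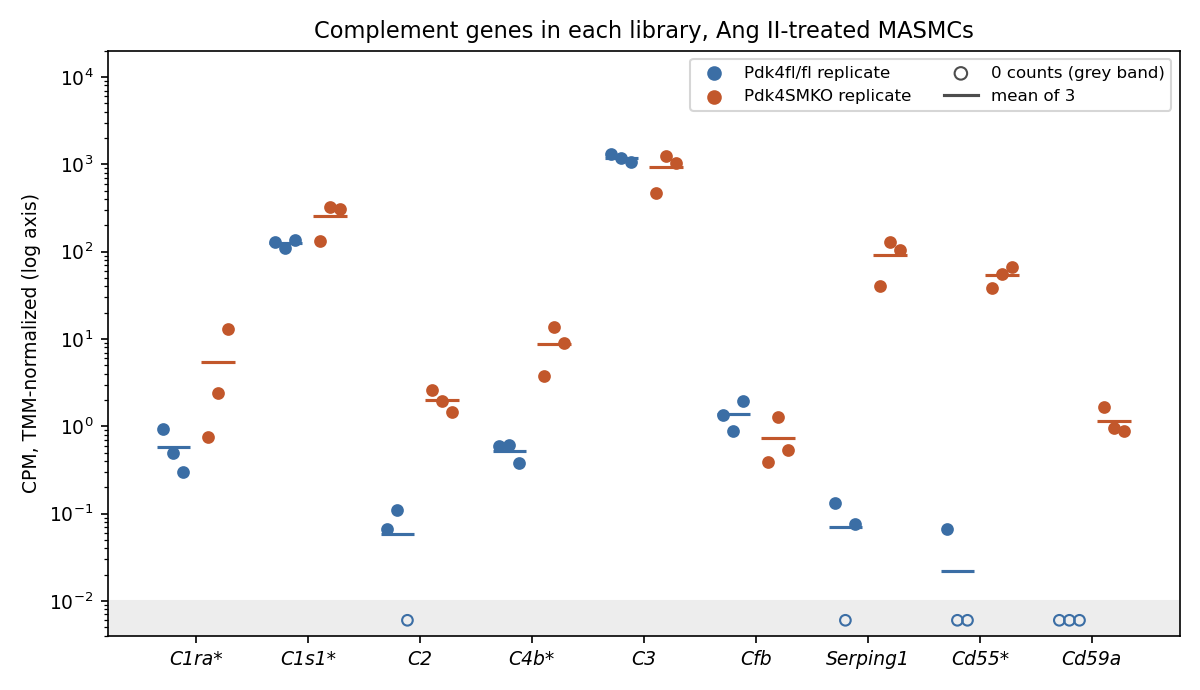
TMM-normalized CPM of the 9 complement genes in each library on a log axis, with Pdk4fl/fl in blue, Pdk4SMKO in red, the mean of 3 as a line and libraries with 0 counts as open circles in the grey band; an asterisk marks an entry matched by description. The red points lie above all blue points for *C2*, *C4b*, *Serping1*, *Cd55* and *Cd59a*, and the colours overlap for *C1ra*, *C1s1*, *C3* and *Cfb*.

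Among the regulators, *Serping1* encodes C1 inhibitor, the serpin that inactivates C1r, C1s and the MASPs (MGP_C57BL6NJ_G0026327, chromosome 2 from 88103439 to 88114381, minus strand, C57BL/6NJ assembly). It had 2, 0 and 1 counts in the Pdk4fl/fl libraries and 928, 2599 and 2157 in the Pdk4SMKO libraries. Every Pdk4SMKO library was therefore high and every Pdk4fl/fl library at or under the 3 counts taken as the detection floor. The mean was 91.9 ± 45.9 CPM (SD, n = 3) against 0.0696 ± 0.0668 (SD, n = 3). The summed counts per library size gave a ratio of 1390, with a 95% counting interval of 475 to 6742 that covers counting error alone. edgeR gave a log2 fold change of 10.33 (SE 0.69, adjusted p = 4.31e-07), a value that depends on the prior count when one genotype is this low.

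*Cd55* encodes decay-accelerating factor, which dismantles C3 convertases on the cell surface. Its entry (MGP_C57BL6NJ_G0016837, chromosome 1 from 138712873 to 138818146, minus strand) held 1, 0 and 0 counts in Pdk4fl/fl and 875, 1107 and 1363 in Pdk4SMKO libraries, or 53.4 ± 14.3 CPM (SD, n = 3) in the latter. The groups did not overlap, and the ratio of summed counts was 2454 (95% counting interval 440.1 to 96950). The log2 fold change was 10.88 (SE 0.48, adjusted p = 3.41e-08). A second, smaller entry described as *Cd55* went the same way, with 1, 0 and 0 against 11, 20 and 16 counts. An unnamed antisense gene overlapping the locus rose too, from 0, 0 and 1 to 323, 329 and 453 counts. Whether the counting used strand is not given in the sources used here, so reads of *Cd55* and of this antisense gene may not be separated. The paralog *Cd55b*, whose span lies within that of *Cd55*, had 0 counts in all 6 libraries.

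*Cd59a* encodes the membrane protein that blocks assembly of the attack complex (MGP_C57BL6NJ_G0026635, chromosome 2 from 109664089 to 109697631, plus strand). It had 0 counts in all 3 Pdk4fl/fl libraries and 38, 19 and 18 in the Pdk4SMKO libraries. At 1.16 ± 0.436 CPM (SD, n = 3) its level was low but above the floor in each Pdk4SMKO culture, and it was at least 5.91-fold higher (adjusted p = 0.00021), taking 3 counts per library as the floor. Its neighbour and paralog *Cd59b* had 0 counts in Pdk4fl/fl and 18, 9 and 6 in Pdk4SMKO libraries, too few to be tested. In the reference transcripts, no word of 150 bases, the read length, from the longest *Cd59a* or *Serping1* transcript occurs in another gene.

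The early classical proteases showed smaller or more uneven differences. *C1s1*, the protease that cleaves C4 and C2, had 1935, 2011 and 1797 counts in Pdk4fl/fl and 3021, 6599 and 6267 in Pdk4SMKO libraries, or 125 ± 13.2 against 256 ± 107 CPM (SD, n = 3 each). Replicate 1 of Pdk4SMKO lay at 132 CPM, within the Pdk4fl/fl range, and replicates 2 and 3 at 328 and 307. The log2 fold change of 1.03 (SE 0.28, adjusted p = 0.00652) sat at the limit of a 2-fold change (exact permutation p = 0.2). The call was lost in fits without Pdk4fl/fl replicate 2 (0.96), Pdk4SMKO replicate 2 (0.82) or Pdk4SMKO replicate 3 (0.89). Its entry (MGP_C57BL6NJ_G0031692, chromosome 6 from 131139417 to 131295963) spans 156.5 kb, and 2.86% of the 150-base words of *C1s1* also occur in the paralog *C1s2*, for which no entry was found.

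*C1ra*, the partner protease that activates C1s, came from an entry outside the strain annotation (chromosome 6 from 131122871 to 131129674) with a length of 918 bases, against 2981 exonic bases for the gene in GENCODE M21. It had 14, 9 and 4 counts in Pdk4fl/fl and 17, 49 and 265 in Pdk4SMKO libraries. One culture, Pdk4SMKO replicate 3, held most of these counts, and replicate 1 lay inside the Pdk4fl/fl range. The log2 fold change was 3.20 (SE 0.96, adjusted p = 0.0107, exact permutation p = 0.2), and without Pdk4SMKO replicate 3 it was 1.45 and not called (adjusted p = 0.0693). The paralog *C1rb* shares 26.3% of the 150-base words of *C1ra*, and its entry overlaps that of *C1ra* on the opposite strand. It had 5, 22 and 8 counts in Pdk4fl/fl against 2, 0 and 0.

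*C2* encodes the protease subunit of the classical C3 convertase (MGP_C57BL6NJ_G0024002, chromosome 17 from 36311731 to 36352883, minus strand). It rose from 1, 2 and 0 counts in Pdk4fl/fl to 60, 39 and 30 in Pdk4SMKO libraries. The groups did not overlap, at 0.0588 ± 0.0553 and 2.01 ± 0.584 CPM (SD, n = 3 each), and the ratio of summed counts was 31.5 (95% counting interval 10.6 to 155). The log2 fold change was 4.84 (SE 0.63, adjusted p = 4.79e-05). *C4b*, the other subunit of that convertase, had 9, 11 and 5 counts in Pdk4fl/fl and 85, 277 and 183 in Pdk4SMKO libraries (chromosome 17 from 36172208 to 36249539, minus strand). Its mean was 0.527 ± 0.129 against 8.82 ± 5.02 CPM (SD, n = 3 each) without overlap, a log2 fold change of 4.02 (SE 0.52, adjusted p = 4.75e-05). A further entry described as C4b on an unplaced scaffold behaved alike, with 14, 15 and 11 against 124, 441 and 328 counts (log2 fold change 4.06). The main *C4b* entry, 1512 bases long, overlaps *Tnxb* on the opposite strand. *Tnxb*, a matrix protein gene, was called higher by a similar factor (log2 fold change 4.04), with 301, 337 and 114 against 2303, 8123 and 5625 counts, and reads of this pair may not be separated without strand.

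*C3*, the central component (MGP_C57BL6NJ_G0024364, chromosome 17 from 61267678 to 61293597, minus strand), was abundant in both genotypes. It had 19697, 21556 and 14089 counts in Pdk4fl/fl and 10651, 25242 and 21367 in Pdk4SMKO libraries, which is 0.0835 to 0.11% and 0.0586 to 0.152% of all counts. The means were 1187 ± 123 and 923 ± 408 CPM (SD, n = 3 each), and the Pdk4SMKO range of 467 to 1255 CPM overlapped the Pdk4fl/fl range of 1065 to 1312 CPM. The log2 fold change of -0.36 (SE 0.29, adjusted p = 0.273, exact permutation p = 0.4) did not pass the test, and its sign turned (0.23) with scaling by library size alone. It was -0.03 without Pdk4SMKO replicate 1. No 150-base word of *C3* occurs in another gene.

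*Cfb* encodes factor B, the alternative pathway counterpart of C2, and lies next to *C2* (MGP_C57BL6NJ_G0024000, chromosome 17 from 36305501 to 36311641, minus strand). It had 20, 16 and 26 counts in Pdk4fl/fl and 9, 26 and 11 in Pdk4SMKO libraries, at 1.39 ± 0.547 and 0.742 ± 0.482 CPM (SD, n = 3 each). The groups overlapped and the log2 fold change of -0.89 (SE 0.52, adjusted p = 0.137) did not pass the test. Without Pdk4SMKO replicate 2 it was -1.54 and called lower (adjusted p = 0.0308), so the result for *Cfb* rests on 1 culture. In the GENCODE M21 transcripts, 80.7% of the 150-base words of *Cfb* and 48.3% of those of *C2* also belong to *Gm20547*, a gene on the same strand that joins both. *Gm20547* had 0 counts in all 6 libraries, and how reads shared with it were counted is not given in the sources used here.

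Promoter windows were held for 5 of the 9 members in the RefSeq table of the GRCm38.p6 build, another assembly than that of the counts. The 250 bases before the annotated start are shown for the most abundant member and for the pair of membrane regulators that were at or near 0 in Pdk4fl/fl cells. The windows are *C3* at chr17:57228137-57228386 (minus strand), *Cd55* at chr1:130462745-130462994 (minus strand) and *Cd59a* at chr2:104095551-104095800 (plus strand). Letters in capitals match a motif searched on both strands.
C3: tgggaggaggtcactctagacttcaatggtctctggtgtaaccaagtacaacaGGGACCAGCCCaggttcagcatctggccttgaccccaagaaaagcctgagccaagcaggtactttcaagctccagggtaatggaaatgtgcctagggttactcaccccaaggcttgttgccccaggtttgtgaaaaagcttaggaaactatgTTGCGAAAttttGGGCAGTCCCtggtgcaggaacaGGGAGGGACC
Cd55: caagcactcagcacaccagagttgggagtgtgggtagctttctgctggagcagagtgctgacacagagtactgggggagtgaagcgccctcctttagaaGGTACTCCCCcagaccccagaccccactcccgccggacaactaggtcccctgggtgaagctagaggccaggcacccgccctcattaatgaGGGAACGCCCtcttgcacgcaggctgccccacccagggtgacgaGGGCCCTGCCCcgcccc
Cd59a: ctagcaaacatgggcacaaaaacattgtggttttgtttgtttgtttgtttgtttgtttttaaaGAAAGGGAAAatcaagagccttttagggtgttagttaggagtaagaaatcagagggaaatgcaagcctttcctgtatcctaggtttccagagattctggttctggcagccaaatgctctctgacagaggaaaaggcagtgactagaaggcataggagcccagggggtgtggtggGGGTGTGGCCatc
The NF-kB letters (GGG, any 5 bases, then CC) were found 4 times each before *C3* and *Cd55*, where 2 of the 4 matches overlap each other, and once before *Cd59a* at position -13 from the start. They occur in 45.8% of all 32851 windows of this length. The C/EBP letters TTGCNNAA were found before *C3* at -45 and occur in 9.56% of windows, and the ISRE letters (GAAA, any 2 bases, then GAAA) were found before *Cd59a* at -187 and occur in 2.98%. Neither the GAS letters TTCNNNGAA (7.02% of windows) nor the TATA box letters TATAAA (12.4%) were found in these 3 windows. The window of *Cd55* holds 64% G and C, against 52% for *C3*, 44.8% for *Cd59a* and a median of 52.4%. The windows are not alike in base composition or in motif letters, although *Cd55* and *Cd59a* were both called higher. The window of *C1ra* held none of these motifs. A match of letters is a description, and binding was not measured.

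Level per length was compared as TPM, which uses the gene lengths of the table without TMM factors. In Pdk4fl/fl cells the order was *C3* (471 TPM), *C1s1* (94.3), *C1ra* (1.32), *Cfb* (0.978), *C4b* (0.718) and then *Serping1*, *C2*, *Cd55* and *Cd59a*, each under 0.1. *C3* and *C1s1* did not overlap with each other or with the next gene, while *C1ra*, *Cfb* and *C4b* overlapped among themselves, as did the last 4 genes. In Pdk4SMKO cells the order was *C3* (714.5 TPM), *C1s1* (381), *Serping1* (157), *Cd55* (72.1), *C1ra* (23.3), *C4b* (23.2), *Cd59a* (3.09), *C2* (2.09) and *Cfb* (1.05). There, the ranges of neighbours overlapped at each step except between *C4b* and *Cd59a*. *Serping1* moved from rank 17984 to rank 1159 of 24025 genes and *Cd55* from 19682 to 2795, whereas *C3* stood at 316 and 171. Summed over the regulators found by name (*Serping1* and *Cd59a*), the level was 0 to 0.127 TPM in Pdk4fl/fl and 76.1 to 223 TPM in Pdk4SMKO libraries. *Cd55* is not in this sum. Summed over the components found by name (*C2*, *C3* and *Cfb*), the level was 369.8 to 566 and 375 to 970.1 TPM, so that the ranges overlapped. Nearly all of this sum was *C3* (368.5 to 565.1 and 371.4 to 966.3 TPM). *C1s1*, *C1ra* and *C4b*, each with a higher mean in Pdk4SMKO, are not in it.

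**Figure D2:**
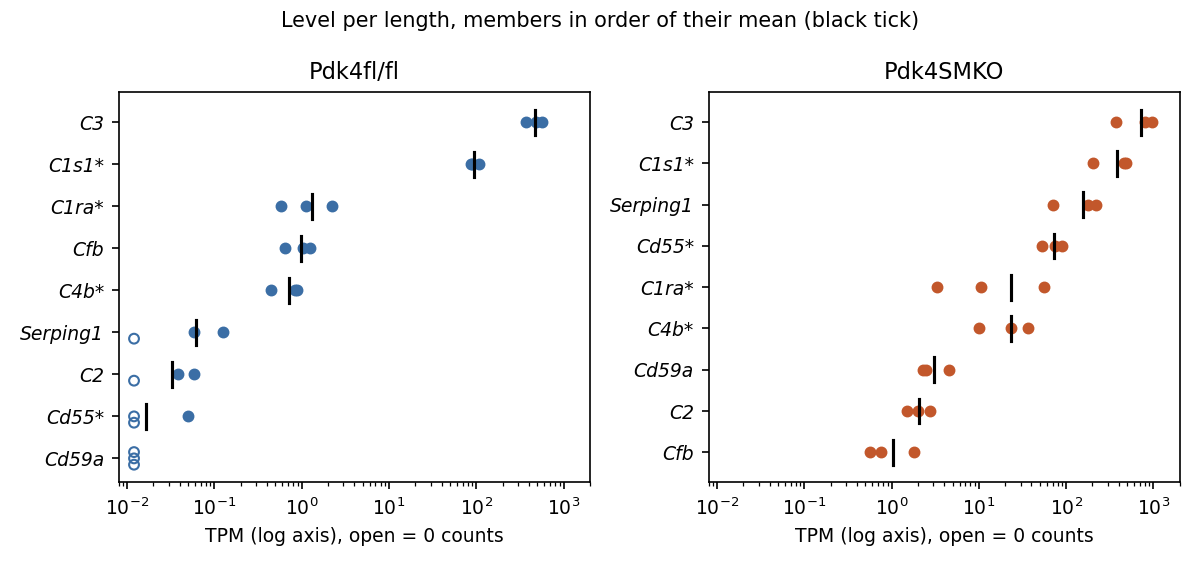
TPM of the 9 complement genes in each library on a log axis, ordered by the mean (black tick) within each genotype; open circles are libraries with 0 counts and an asterisk marks an entry matched by description. *C3* and *C1s1* lead in both genotypes, while *Serping1* and *Cd55* follow directly in Pdk4SMKO and stand among the last in Pdk4fl/fl.

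The rest of the complement system was examined through a list of further genes, of which 39 were found by name and 16 passed the filter on low counts. Of these 16, 11 were called higher, 3 lower and 2 were not called. Their log2 fold changes had a median of 1.95. Over all tested genes, 32.8% were called higher and 26.5% lower, and the median was 0.12. Of the 11 higher genes, *C1qa*, *C1qb*, *C1qc*, *C9* and *Csmd1* had at most 1 count in any Pdk4fl/fl library. They could pass the filter through Pdk4SMKO alone, as could *C1rl* (3, 2 and 6 counts in Pdk4fl/fl) and *Cd46* (4, 4 and 1). The number called higher and the median are therefore no support for a difference of this list from other genes.

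The soluble regulator genes *C4bp* and *Clu* and the membrane regulator genes *Cd46*, *Cr1l* and *Csmd1* were called higher, as were the 3 regulators among the members. *Susd4*, the remaining membrane regulator listed, was too sparse to be tested and lay the other way without overlap, with 12, 28 and 9 counts in Pdk4fl/fl and 5, 0 and 3 in Pdk4SMKO libraries (log2 fold change -2.91, adjusted p = 0.000525 in an edgeR fit without the filter). *Clu*, the gene of clusterin, which binds terminal complexes, rose from 141 ± 10.8 to 1673 ± 257 CPM (SD, n = 3 each, log2 fold change 3.57, adjusted p = 3.80e-08). *Cr1l*, which encodes the rodent membrane regulator Crry, rose from 20.8 ± 4.54 to 46.6 ± 2.39 CPM (log2 fold change 1.17, adjusted p = 8.67e-05). *C4bp* (log2 fold change 1.60) and *Cd46* (2.29) changed from lower levels, and *Csmd1* had 0, 1 and 0 counts against 11, 65 and 51.

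The C1q chains, which start the classical pathway and are mostly macrophage products, were listed at 0 in every Pdk4fl/fl library. *C1qa* had 125, 58 and 35 counts in Pdk4SMKO libraries, *C1qb* 170, 69 and 42, and *C1qc* 187, 53 and 43. Taking 3 counts per library as the floor, *C1qa* was at least 17.04-fold higher, and *C1qb* and *C1qc* at least 21.9-fold. Without Pdk4SMKO replicate 1 these bounds were 11.7-fold, 13.9-fold for *C1qb* and 12.03-fold for *C1qc*. *C1rl*, a C1r-like protease gene beside *C1ra*, rose from 3, 2 and 6 to 311, 373 and 343 counts (log2 fold change 6.05, adjusted p = 2.03e-07). The lectin pathway genes did not share a direction. *Colec11*, a collectin, fell by 1.54 on the log2 scale (adjusted p = 0.0045). *Masp1* was lower without overlap of the genotypes (log2 fold change -0.43, adjusted p = 0.0213) but was not called, as the change was under 2-fold. With library size alone its log2 fold change was 0.18. *Mbl1*, *Mbl2* and *Fcnb* had 0 counts in all libraries. The untested *Masp2* had 5, 8 and 10 counts against 2, 0 and 1, *Fcna*, a ficolin, 0 in each Pdk4fl/fl library against 9, 1 and 10, and *Colec10* 4, 1 and 1 against 3, 5 and 5.

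Of the alternative pathway, *Cfp*, the gene of properdin, which stabilizes its convertase, had 135, 194 and 90 counts in Pdk4fl/fl and 109, 59 and 59 in Pdk4SMKO libraries (log2 fold change -1.32, adjusted p = 0.00137). With scaling by library size alone neither *Colec11* (-0.94) nor *Cfp* (-0.71) was called. *Cfd*, the gene of factor D, had 0 counts in all libraries. The terminal pathway was sparse. *Hc*, which encodes C5 and was matched by description, had 12, 11 and 13 counts in Pdk4fl/fl and 0 in each Pdk4SMKO library, at least 5.58-fold lower, and was not tested. *C9* showed the reverse, with 0 counts against 44, 23 and 43 (at least 8.76-fold higher), *C8g* rose by 1.49 on the log2 scale, and *C6*, *C7*, *C8a* and *C8b* had at most 3 counts in any library. Of the receptors, *C3ar1*, the receptor of the C3a peptide, fell from 71.0 ± 3.40 to 18.4 ± 4.80 CPM (SD, n = 3 each, log2 fold change -1.94, adjusted p = 5.02e-06). *C5ar1* had 0 counts against 24, 8 and 10.

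**Figure D3:**
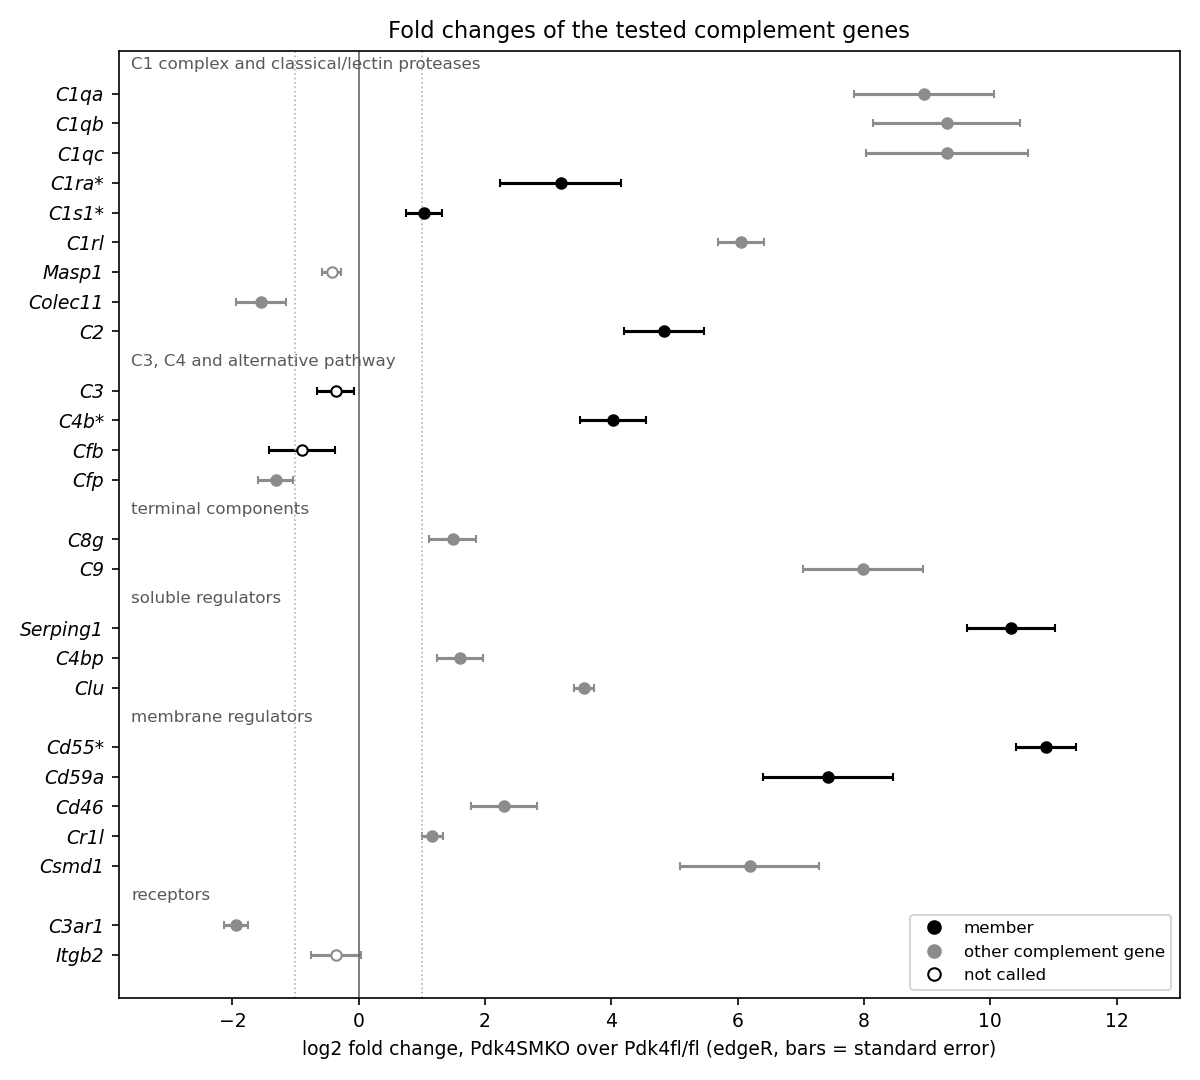
Log2 fold change with its standard error from edgeR for the 9 members (black) and the 16 other tested complement genes found by name (grey), grouped by role; open symbols were not called, dotted lines mark a 2-fold change, and an asterisk marks an entry matched by description. All regulators drawn lie to the right of the upper dotted line, while *C3*, *Cfb*, *Cfp*, *Colec11*, *C3ar1*, *Masp1* and *Itgb2* lie left of 0, of which *C3*, *Masp1* and *Itgb2* lay right of 0 with scaling by library size alone; values for genes at 0 in Pdk4fl/fl, such as *Cd59a*, depend on the prior count.

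The Pdk4SMKO cultures differed among themselves, and the members fell on both sides. *C3*, *C4b*, *Cfb*, *C1ra*, *C1s1*, *Serping1* and *Cd55* were lowest in Pdk4SMKO replicate 1, and *C2* and *Cd59a* were highest there. Among the 7 members called higher, 5 were lowest in that library and 2 highest, and of all genes called higher, 43.2% were lowest and 35.6% highest. The CPM in replicate 1, as a ratio to the mean of replicates 2 and 3, was 0.346 for *Serping1*, 0.328 for *C4b*, 0.406 for *C3* and 0.417 for *C1s1*. It was 1.54 for *C2*, 1.82 for *Cd59a*, and 2.38, 2.72 and 3.46 for *C1qa*, *C1qb* and *C1qc*.

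**Figure D4:**
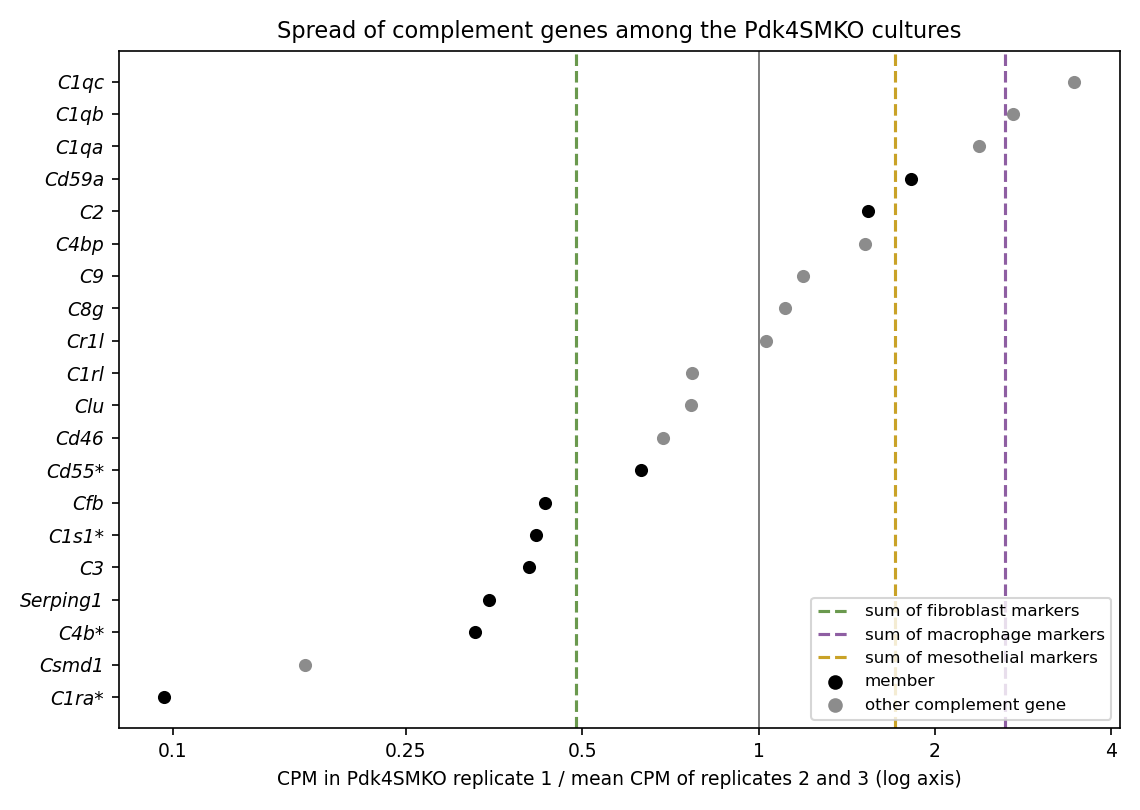
CPM in Pdk4SMKO replicate 1 divided by the mean CPM of replicates 2 and 3, on a log axis, for the 9 members (black) and the 11 other complement genes found by name and called higher (grey); dashed lines give the same ratio for the summed CPM of marker lists, and an asterisk marks an entry matched by description. The ratios run from 0.0966 for *C1ra* through 0.328 to 0.63 for *C4b*, *Serping1*, *C3*, *C1s1*, *Cfb* and *Cd55*, on both sides of the fibroblast sum (0.487). *C2* (1.54) and *Cd59a* (1.82) lie on both sides of the mesothelial sum (1.71), and the C1q genes (2.38 to 3.46) on both sides of the macrophage sum (2.63). The smooth muscle, endothelial and hepatocyte sums are not drawn.

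Markers of other cell types were called in both directions, where 32.8% of all tested genes were called higher and 26.5% lower. Of the fibroblast list, 3 of 6 tested genes were called higher (*Dcn*, *Lum* and *Cd34*) and *Dpt* lower. Its summed level was 121 to 148 CPM in Pdk4fl/fl and 283, 612 and 551 CPM in Pdk4SMKO libraries, the same order of cultures as *Serping1*, *C4b* and *C3*. Most of this sum was *Dcn* (244.9, 552.9 and 503.2 CPM in Pdk4SMKO libraries). *Lum*, *Dpt* and *Pdgfra* had the same order, while *Cd34* and *Pi16* were highest in Pdk4SMKO replicate 1. *Lum* and *Cd34*, both called higher, could pass the filter on low counts through Pdk4SMKO alone. Of the macrophage list, 5 of 6 tested genes were called higher and *Cd68* lower, with sums of 21.6 to 38.1 CPM against 83.0, 33.6 and 29.5. *Adgre1*, *Tyrobp* and *Mrc1* were at 0 in Pdk4fl/fl, the same libraries in which the C1q genes were at 0. Like the C1q genes, they could pass the filter through Pdk4SMKO alone. *Csf1r* (2, 4 and 2 counts in Pdk4fl/fl) and *Lyz2* (2, 4 and 0) could too, so this held for every macrophage gene called higher. All 6 tested mesothelial genes were called higher, with sums of 74.1 to 99.9 CPM against 1296, 707 and 808. Of these genes, *Upk1b*, *Lrrn4*, *Wt1* and *Upk3b* could pass the filter through Pdk4SMKO alone, so the number called is no support for this list. Pdk4SMKO replicate 1 was the highest of its genotype for the summed markers of 5 of the 6 lists. As a ratio to the mean of replicates 2 and 3 it stood at 2.63 for macrophage, 1.78 for hepatocyte, 1.71 for mesothelial, 1.63 for endothelial and 1.22 for smooth muscle markers, against 0.487 for fibroblast markers. The hepatocyte sums were only 0.263, 0.0994 and 0.196 CPM in the Pdk4SMKO libraries, near the floor, so that their order carries little weight. Of the endothelial list, both tested genes (*Kdr* and *Vwf*) were called lower, at sums of 14.1 to 23.7 CPM against 2.83 to 5.57. Of the hepatocyte list 0 genes passed the filter, and *Ttr* was at 0 in all libraries. The smooth muscle list split, with 4 of 8 genes higher (among them *Acta2* and *Myh11*) and 3 lower (*Tagln*, *Cnn1* and *Smtn*), at sums of 785 to 810.1 and 722 to 952 CPM, so the defining *Acta2* was present in every library while *Myh11* had only 8 to 10 counts in Pdk4fl/fl. *Myh11* and *Des*, both called higher, could also pass the filter through Pdk4SMKO alone. The part of the listed cell types in the complement values was not tested. In bulk RNA, more cells of a type cannot be told from more RNA per cell.

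Genes beside the members were called in both directions. Of 30 genes within 50 kb that belong to no complement list, 15 were tested, of which 2 were called higher, 4 lower and 9 were not called. The shares over all tested genes were 32.8% higher and 26.5% lower. The higher pair was *Tnxb*, beside *C4b*, and *Lpcat3* (log2 fold change 2.93), beside *C1s1*. The lower genes were *Neu1* (-2.50) and *Nelfe* (-1.15) near *C2*, *Trip10* (-1.81) near *C3* and *Clp1* (-1.28) near *Serping1*, of which *Nelfe* (-0.54) and *Clp1* (-0.67) were not called with library size alone.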

How the data were processed

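The authors deposited 1 table of raw read counts per gene, whole numbers without normalization, for 6 libraries. The submitters' processing notes name the build GRCm39, while the gene identifiers and positions are those of the C57BL/6NJ strain annotation. Aligner, counting program and use of strand are not given in the sources used here. The methods name a NEBNext kit and DESeq2, and the labels a SMARTER kit.

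The fits used edgeR 4.0.16 in R 4.3.3 (filterByExpr, TMM, quasi-likelihood test of genotype, Benjamini-Hochberg over 14085 genes), limma 3.58.1 and DESeq2 1.42.0 as an alternative, after a test on simulated data. TMM factors were 0.784 to 0.838 in Pdk4fl/fl and 1.21 to 1.26 in Pdk4SMKO. The floor was 3 counts per library, or 0.131 to 0.227 CPM. Intervals are exact, at 95%. Motifs and shared words were read from RefSeq windows and GENCODE M21 with Python 3.11.15.

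Named genes were the 9 members, *Pdk4*, and those of the wider list and the neighbours that were called, paralogs or near 0. *Xist*, *Gm20547*, *Tnxb* and the *Cd55* antisense entry were added after values were seen. The members and lists were chosen with earlier results of these data known. Alternatives were other scalings, tools and filters, protein-coding genes alone, no minimum fold change, the replicate number as a block and leaving out each library. Summing entries of one gene and counting the 4 unnamed entries were chosen after seeing the data. One result of the wider list is not reported here.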

Additional observations from a re-analysis of the deposited data

How the results depend on the processing

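With scaling by library size alone, the median log2 fold change of all tested genes was 0.72 in place of 0.12, the log2 fold change of *C3* turned to 0.23, and 1 other complement gene was called lower in place of 3. With at least 10 counts in every library, 0 named members were called higher, since *C2*, *Cfb*, *Serping1* and *Cd59a* were not tested there, and 5 other complement genes, entries matched by description included, were called higher in place of 12. With the 4 unnamed entries counted, 7 members were higher. Without a filter, 7 other complement genes were lower, with *Hc*, *Susd4*, *C1rb* and *Masp2* tested in addition. Leaving out single libraries, 0 or 1 named members were lower, the 1 being *Cfb* without Pdk4SMKO replicate 2 (log2 fold change -1.54, the range over left-out libraries being -1.54 to -0.57), and 3 to 5 other complement genes were lower, 5 without each of the Pdk4SMKO replicates, with *Hc* and *Susd4* tested in addition. *C1ra* was not called without Pdk4SMKO replicate 3 (1.45). The order by TPM changed in 2 places without Pdk4SMKO replicate 3 and in 2 to 6 places with a Pdk4fl/fl library left out. The replicate numbers did not pair the samples, as the deviations of same-numbered libraries correlated at 0.05, 0.10 and 0.23. With the replicate number as a block, *C1s1* had a log2 fold change of 0.94 and was not called, and 4577 genes were higher and 3704 lower over all genes. Over all values and alternatives, 172 were the same (for counts, within 1.5 times), 13 moved, 5 no longer passed the threshold, 1 newly passed it and 1 changed sign. Depth limits *C2*, *Cfb*, *Cd59a*, *Hc*, *C9* and the C1q genes, whose counts were low in both genotypes or at 0 in one.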
